A study of Mus musculus with 5 samples.

Results

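Peaks of JunB and H3K27ac were examined around 10 immediate-early and stress-response genes of mouse muscle stem cells (MuSCs): Egr1, Egr2, Egr3, Ier2, Ier3, Ier5, Nr4a1, Klf4, Klf6 and Myc. The genes were taken by name from 21938 protein-coding genes of the GENCODE M21 annotation, and peaks were kept when they lay within 50 kb of any annotated transcription start site (TSS) of a gene. Peaks within 3 kb of a TSS were treated as promoter peaks and those from 3 to 50 kb as distal peaks. The data came from CUT&RUN-seq, in which an antibody held on permeabilised cells guides a nuclease to cut out the DNA beside its target. Young mice gave 3 JunB libraries, titled as biological replicates and named Young 1, Young 2 and Young 3 here, aged mice gave 1, named Aged, and H3K27ac was mapped in 1 library without a stated age; H3K27ac is an acetylated histone found at promoters and enhancers in use. The labels name no genotype, strain or treatment for a library and give age only as Young or Aged, whereas the design text of the series speaks of DMSO- and MVC-treated mice; the titles were followed. The cells were described as freshly isolated MuSCs, and every JunB library was made with the same antibody. For H3K27ac the study's methods also name an epigenome mapping project, so the origin of its cells is less certain.

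Immediate-early genes are transcribed within minutes of a stimulus, without new protein synthesis, from promoters that serum response factor, CREB and related factors keep ready. JunB belongs to the same class of genes: its protein pairs with Fos proteins to form AP-1, which binds TGACTCA or its reverse complement TGAGTCA. In MuSCs these genes are known for switching on while the tissue is digested and the cells are sorted.

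The lists held 9534, 4884 and 3863 JunB peaks in Young 1, 2 and 3, 14123 in Aged and 39865 H3K27ac peaks. Each list was called on its own library, and its fold enrichment compares the pileup at a peak's summit with the local background, as a ratio. The median fold differed between JunB lists, being 5.20, 7.74 and 8.11 in Young 1 to 3 and 4.93 in Aged, so each peak is also given by the percentile of its −log10 p within its own list, that is, the share of the list that it equals or exceeds. The labelled cell type of the H3K27ac library was checked by its promoter peaks, a check that does not cover the cells of the JunB libraries. These were present at 7 of 10 MuSC markers, Myod1, Cdh15, Itga7, Vcam1, Chodl, Des and Sdc4, but absent at Pax7, Myf5 and Calcr. They were present at 0 of 4 leukocyte markers and at 2 of 4 markers each of fibro-adipogenic progenitors (Dcn and Dpt), endothelial cells (Pecam1 and Tek) and smooth muscle (Acta2 and Tagln). Over all protein-coding genes 49.8% had such a peak, so these small counts do not settle the cell type. The part of other cell types in the results was not tested. With 1 aged library no test between ages was made, and the aged values are set beside the spread of the 3 young libraries.

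Near the 10 genes, 7 regions held a peak of all 4 JunB libraries. Sequences are shown for these, since they are the places where JunB peaks recur, for the Klf4 promoter, and for the 2 regions in which the AP-1 motif lay within 50 bp of a summit. Each was read from the plus strand of GRCm38, the assembly that mm10 names, with every AP-1 motif in capitals (TGACTCA or TGAGTCA), or the related CRE motif TGACGTCA at Ier3. The distance of the motif from the middle summit of its region is given with each. A region spans all its overlapping peaks, so a printed motif need not lie in the peak of every library. The copy at Mdc1 lay in the aged peak alone, and the Egr2 copy lay outside the Young 3 peak. The other Ier3 CRE copy lay outside the peaks of Young 1 and 3. The Klf6 copy 81 bp from its summit lay outside the Young 2 peak. Of the Klf4 copies, the first lay outside the Young 1 peak and the other outside the Young 2 peak.
Egr2 10.9 kb downstream, at Ado, chr10:67549659-67549699, 143 bp from the summit: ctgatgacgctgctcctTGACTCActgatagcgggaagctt
Egr3 17.6 kb downstream, chr14:70096495-70096535, 170 bp from the summit: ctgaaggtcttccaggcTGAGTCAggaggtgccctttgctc
Ier3 8.04 kb upstream, chr17:35813382-35813422, 239 bp from the summit: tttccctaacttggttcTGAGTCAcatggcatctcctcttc
Ier3 19.8 kb downstream, at Mdc1, chr17:35841220-35841260, 268 bp from the summit: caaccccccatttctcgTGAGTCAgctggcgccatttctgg
Ier3 44.5 kb upstream, CRE copy, chr17:35776940-35776981, 188 bp from the summit: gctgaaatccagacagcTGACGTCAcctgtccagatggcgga
Ier3 44.5 kb upstream, other CRE copy, chr17:35777348-35777389, 220 bp from the summit: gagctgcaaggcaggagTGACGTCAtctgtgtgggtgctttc
Klf6 16.4 kb upstream, copy nearest the summit, chr13:5844955-5844995, 81 bp from it: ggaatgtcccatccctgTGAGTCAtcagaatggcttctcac
Klf6 16.4 kb upstream, a pair of copies, chr13:5845244-5845297, 208 and 221 bp from the summit: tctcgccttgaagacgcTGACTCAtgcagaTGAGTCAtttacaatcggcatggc
Klf6 intron, no copy in the region, chr13:5866163-5866203, centred on the summit: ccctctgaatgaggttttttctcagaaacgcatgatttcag
Klf4 promoter, chr4:55532979-55533019, 174 bp from the summit: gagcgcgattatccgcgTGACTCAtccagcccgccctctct
Klf4 promoter, other copy, chr4:55533351-55533391, 198 bp from the summit: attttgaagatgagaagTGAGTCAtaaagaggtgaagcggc
Klf6 23.9 kb upstream, Young 1 alone, chr13:5837514-5837554, 3 bp from the summit: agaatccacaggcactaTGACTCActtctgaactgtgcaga
Nr4a1 27.1 kb upstream, aged library alone, chr15:101227133-101227173, 17 bp from the summit: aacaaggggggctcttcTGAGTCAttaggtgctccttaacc

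JunB peaks lay within 50 kb of 9, 7 and 5 of the 10 genes in Young 1, 2 and 3 and of all 10 in Aged, against 40.4%, 27.5%, 23.4% and 58.4% of protein-coding genes, and their position differed from gene to gene. Egr1, Klf4, Klf6 and Myc had a promoter peak in both ages, Egr3 and Nr4a1 had one in Aged and in no young library, and Egr2, Ier2, Ier3 and Ier5 had none in any JunB library. A promoter peak in all 4 JunB libraries was found at Klf6 alone; without Young 3, Egr1 and Klf4 would join it, making 3 genes. Counted by library, 4, 3 and 1 of the 10 genes had a JunB promoter peak in Young 1, 2 and 3, on average 2.67 ± 1.53 (SD, n = 3), against 6 in Aged. Over all protein-coding genes the shares were 11.0%, 7.74% and 5.91% in the young libraries and 23.9% in Aged. The count of 1 in Young 3 was Klf6 and fell to 0 with a promoter limit of 1 kb or with the TSSs of protein-coding transcripts alone. A promoter peak in all 4 libraries was found at 4.36% of protein-coding genes, against 1 of the 10, and one in Aged but no young library at 13.1%, against 2 of the 10 genes.

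**Figure D1:**
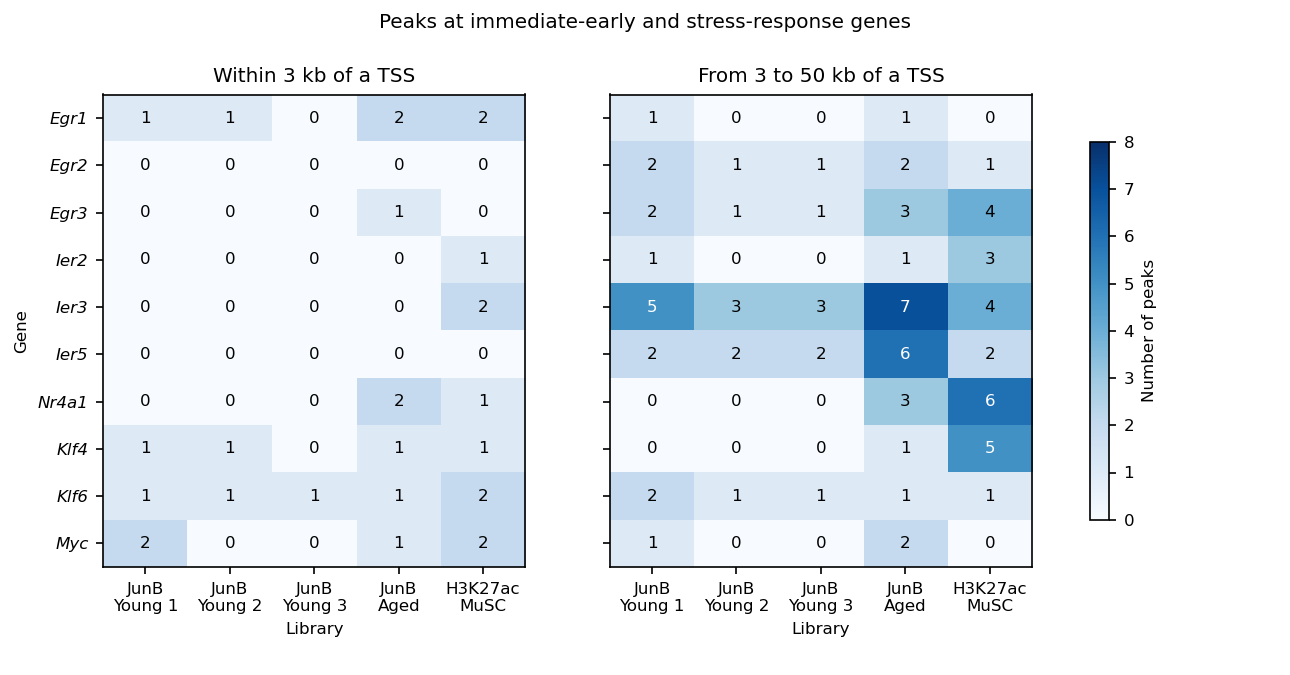
Number of peaks at each gene (rows) in each library (columns), within 3 kb of a TSS (left) and from 3 to 50 kb (right), with the count printed in each cell. Ier3 and Ier5 had 7 and 6 distal peaks in Aged and 0 promoter peaks in every JunB library.

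Egr1 encodes a zinc-finger transcription factor and lies on chromosome 18 of mm10 from 34859823 to 34864984 (ENSMUSG00000038418). A JunB promoter peak was found in Young 1 with a fold of 4.35, in Young 2 with a fold of 6.59 and in Aged with a fold of 5.68, and Young 3 had none. The summits lay 564, 528 and 407 bp downstream of the TSS, inside an annotated Egr1 UTR, and the merged region overlapped an H3K27ac peak. Aged held a second promoter peak 149 bp before the internal TSS of the gene, with a fold of 4.42. The percentiles of these peaks were 37.6 and 41.2 in the young libraries and 79.6 and 59.6 in Aged. The aged fold near the first TSS thus lay between the young folds, and percentiles come from lists of unequal length and threshold. Its distal peaks did not recur: Young 1 had one 4240 bp downstream and Aged one 9556 bp upstream.

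Egr2 encodes a zinc-finger factor needed in hindbrain and Schwann cells and lies on chromosome 10 from 67535475 to 67542188. It had no JunB and no H3K27ac peak within 3 kb of a TSS. All 4 JunB libraries shared a region 10.9 kb downstream (67549108 to 67549855), with folds of 7.79, 7.40 and 8.97 in Young 1 to 3 and 9.90 in Aged. That region lay 153 bp from a TSS of the neighbouring gene Ado, which encodes a thiol dioxygenase, and overlapped an H3K27ac peak, so it is a promoter region of Ado as well as a distal region of Egr2. The aged percentile of 96.6 was above those of the young libraries, 74.6, 41.9 and 57.4. Further peaks at 27626 bp downstream (Young 1, fold 4.15) and 41292 bp upstream (aged, fold 4.15) were each found in 1 library.

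Egr3, an Egr factor required for muscle spindles, lies on chromosome 14 from 70077203 to 70082614. The region with the highest JunB fold of all those near the 10 genes lay 17.6 kb downstream of a TSS of Egr3 (70096196 to 70096530). Its fold was 15.4, 14.0 and 16.2 in Young 1 to 3, with 15.2 ± 1.08 as their average (SD, n = 3), against 6.46 in Aged. Its percentile was 95.5, 87.7 and 91.9 in the same order and 77.9 in Aged. Both measures were thus lower in Aged than in every young library. The region was intergenic, 3575 bp from the nearest TSS of Bin3, and 3139 bp away from the nearest H3K27ac peak. A region 28.2 kb downstream, in an intron of Bin3, overlapped H3K27ac and held a peak in Young 1 (fold 8.34) and in Aged (fold 7.77). Between these regions Aged had a peak 26 bp from a Bin3 TSS, with a fold of 3.87. At the Egr3 promoter Aged had a peak 667 bp upstream with a fold of 4.04 and a percentile of 26.0, and the young libraries had none.

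Of the Ier genes, Ier2 and Ier5 encode related nuclear regulators, of which Ier5 is a partner of heat shock factor HSF1, and Ier3 encodes an unrelated stress-induced protein that acts on apoptosis and MAP kinase signalling. None of the 3 had a JunB promoter peak in any JunB library. Ier3 lies on chromosome 17 from 35821684 to 35822923 and was the gene with the most JunB peaks, 5, 3 and 3 in Young 1 to 3 and 7 in Aged, all of them distal. In 3 places every JunB library held a peak. At 8.04 kb upstream (35812933 to 35813905) the folds were 10.3, 10.5 and 8.05 in Young 1 to 3 and 7.46 in Aged. At 44.5 kb upstream (35776487 to 35777386), inside an exon of 4833427F10Rik, they were 10.8, 13.3 and 10.8 against 10.01. Both of these regions overlapped H3K27ac, and the TSS of Ier3 was the nearest of any protein-coding gene. At 19.8 kb downstream (35841230 to 35841661) the folds were 6.23, 6.56 and 7.96 in Young 1 to 3 and 7.24 in Aged. This last region spanned a TSS of Mdc1, a DNA damage checkpoint gene, and was 18430 bp from the nearest H3K27ac peak. Young 1 and Aged also shared a region 13.4 kb upstream within H3K27ac (folds of 4.20 and 6.03) and one 49.0 kb downstream in an intron of Ppp1r18 (8.40 and 8.24). Aged alone had peaks in coding exons of Tubb5 and Nrm, 13.6 and 39.7 kb downstream, with folds of 5.95 and 6.54.

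Ier5 lies on chromosome 1 from 155096361 to 155099636 and had 2 distal JunB peaks in each young library and 6 in the aged one. No region was in all 4 libraries, but 3 regions were in 3 of them. The region 8.91 kb upstream (155108084 to 155108842) had folds of 4.15 and 5.12 in Young 1 and 2 and 7.67 in Aged, with percentiles of 24.9, 4.01 and 86.8. It was intergenic, and its aged fold was above both young folds. The region 39.5 kb upstream, in an intron of Mr1, had folds of 8.18 and 8.99 in Young 1 and 3 and 5.54 in Aged. The region 48.4 kb downstream had folds of 5.16 and 5.96 in Young 2 and 3 and 4.79 in Aged, and of the 3 it alone overlapped H3K27ac. The remaining aged peaks of Ier5, 7.87 and 24.6 kb downstream and 22.6 kb upstream, had folds of 3.802, 3.45 and 5.37 and no young counterpart. Ier2 lies on chromosome 8 from 84661331 to 84662852 and had only a peak near the edge of the window, 49.7 kb upstream in an intron of Nfix. It was found in Young 1 (fold 3.74) and in Aged (fold 5.05), and it was 1395 bp from a TSS of Nfix.

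Nr4a1, an orphan nuclear receptor, lies on chromosome 15 from 101254269 to 101274795 and was the only one of the 10 genes without a JunB peak in any young library. In Aged it had 5 peaks. At its downstream TSS a peak from 101266255 to 101266898 had a fold of 5.42 and a percentile of 65.1. Before its first TSS, at 316 bp, a peak had a fold of 4.15 and a percentile of 25.8. The distal ones lay 27133 and 7653 bp upstream and 11359 bp downstream, with folds of 4.40, 4.60 and 4.44, all under the median fold of the aged list. The 11359 bp region spanned a TSS of Atg101, an autophagy gene. The peak at the downstream TSS stopped 253 bp short of the H3K27ac peak at that promoter.

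Klf4 and Klf6 encode zinc-finger factors of the Krüppel-like family, and Klf4 is one of the factors used to reprogram cells to pluripotency. Klf4 lies on the minus strand of chromosome 4 from 55527143 to 55532466. Its promoter peak had a fold of 6.23 and 6.26 in Young 1 and 2 and 5.30 in Aged, and Young 3 had none. The 3 summits fell within 47 bp of each other, 700 to 747 bp upstream of the TSS, and the region (55532786 to 55533586) overlapped an H3K27ac peak. A further aged peak 42.9 kb downstream had a fold of 5.19.

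Klf6 lies on chromosome 13 from 5861482 to 5870394 and had 2 regions with a peak in every JunB library. The first lay in an intron of Klf6 (5865971 to 5866641), with folds of 7.92, 9.52 and 8.08 in Young 1 to 3 and 4.88 in Aged. Its percentiles were 82.4, 77.6, 64.5 and 79.0, so the aged rank fell within the young range although the aged fold was below it. It counts as a promoter region only through the TSS of a retained-intron transcript 1505 bp before it: the summit was 4701 bp from the first TSS, and with protein-coding transcripts alone none of the 10 genes had a promoter peak in all 4 libraries. It overlapped no H3K27ac peak, the nearest being 2206 bp away. The second lay 16.4 kb upstream in intergenic sequence (5844951 to 5845872), with folds of 6.64, 7.58 and 6.18 in Young 1 to 3 and 5.47 in Aged. The nearest TSS of another protein-coding gene, Pitrm1, was 702277 bp away, and the nearest H3K27ac peak was 14879 bp away. Both regions were thus found in all JunB libraries outside H3K27ac peaks.

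Myc encodes a basic helix-loop-helix factor that drives growth and lies on chromosome 15 from 61985391 to 61990374. A peak about 2 kb upstream (61983166 to 61983484) was found in Young 1 with a fold of 5.98 and in Aged with a fold of 5.07. Young 1 held another 292 bp upstream with a fold of 4.57, which overlapped H3K27ac. A region 4.33 kb downstream had folds of 4.91 in Young 1 and 3.85 in Aged, and Aged had a peak at 5046 bp with a fold of 3.72. Young 2 and Young 3 had no JunB peak within 50 kb of Myc.

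**Figure D2:**
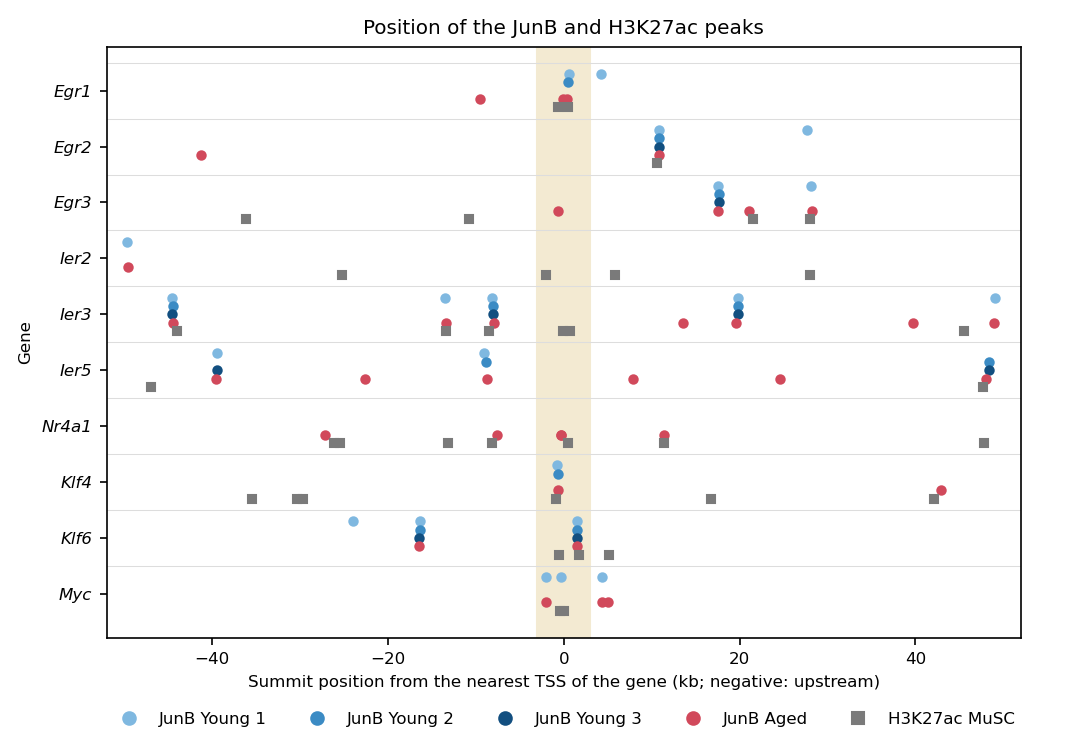
Summits of the JunB peaks (circles, 1 colour for each library) and H3K27ac peaks (grey squares) of each gene, by distance in kb from the nearest TSS of that gene, with the 3 kb to each side shaded. JunB summits of all 4 libraries stand above each other at Egr2, Egr3, Ier3 and Klf6, while Nr4a1 has circles of Aged alone.

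Peaks of the 4 JunB libraries near the 10 genes merged into 39 regions, 9 at promoters and 30 distal. Of these, 7 held a peak of all 4 libraries, 5 of 3, 6 of 2 and 21 of 1 library. The 7 shared regions made up 17.9% of the 39 (exact 95% binomial interval 7.54% to 33.5%, for counting error only), close to the 14.4% of the 13404 JunB regions near protein-coding genes. Distal regions shared by all 4 libraries occurred at 4 of the 10 genes (Egr2, Egr3, Ier3 and Klf6), against 14.1% of protein-coding genes. Not all distal regions were closest to the gene that placed them here. For 15 of the 30 the nearest protein-coding TSS was that of the gene itself, and 9 lay within 3 kb of a TSS of another protein-coding gene. Among the 6 distal regions in all 4 libraries, the gene itself was nearest for 3: those 8.04 and 44.5 kb upstream of Ier3 and 16.4 kb upstream of Klf6.

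**Figure D3:**
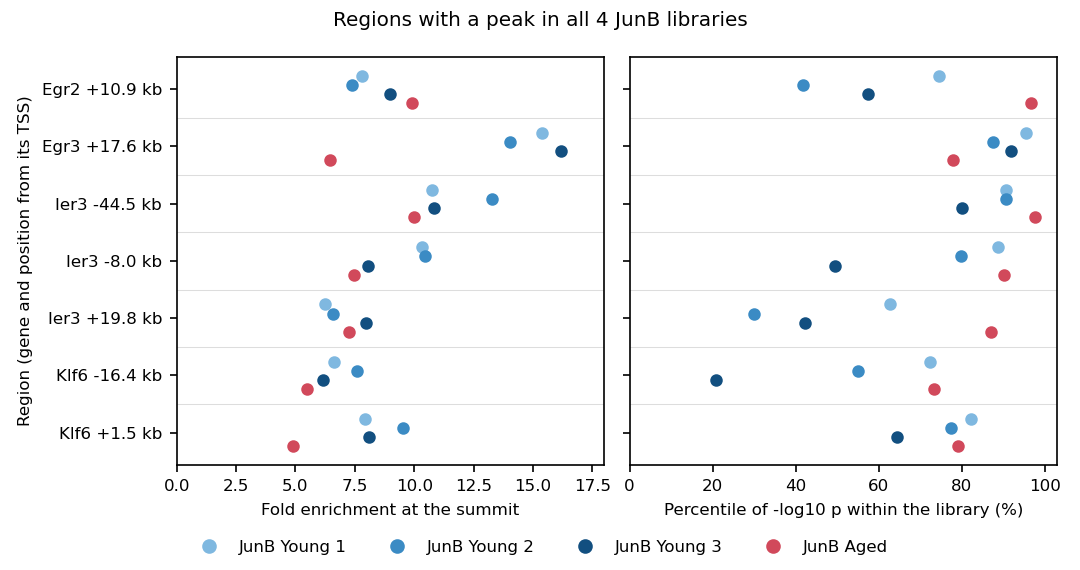
The 7 regions with a peak in all 4 JunB libraries, by fold enrichment at the summit (left) and by percentile of −log10 p within the library (right), 1 point for each library. The aged fold was below all young folds in 5 of the 7, and the aged percentile was above all young percentiles in 5 of the 7.

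The order of the aged and young values in these 7 regions depended on the measure. The aged fold was below all 3 young folds in 5 regions, within them at Ier3 19.8 kb downstream and above them at Egr2. In all 1926 regions shared by the 4 libraries the aged fold was below in 60.9% and above in 9.61%. The aged percentile was above all 3 young percentiles in 5 regions, within them in the Klf6 intron and below them at Egr3, against 56.2% above and 11.0% below in all shared regions. The regions at Egr3 and Egr2 were the ones in which both measures pointed the same way, lower in Aged at Egr3 and higher at Egr2. At Egr2 the young mean fold was 8.05 ± 0.818 (SD, n = 3) against 9.90 in Aged. With 1 aged library these orders have no replicate check.

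The AP-1 motif was present in 5 of the 7 regions shared by all 4 libraries, with 4 copies in the region 16.4 kb upstream of Klf6. In each it lay at least 81 bp from the middle summit. The motif was sought over the merged region, so a copy need not lie in the peak of every library. A copy lay in every library's peak at Egr3, Ier3 8.04 kb upstream and Klf6 16.4 kb upstream. The copy at Ier3 19.8 kb downstream lay in the aged peak alone, and the Egr2 copy lay outside the Young 3 peak. Of all 1926 shared regions, 57.5% held the motif. Anywhere in the region it was found in 13 of the 39 regions (33.3%, exact 95% binomial interval 19.1% to 50.2%), against 26.7% of the regions near protein-coding genes, whose median width of 357 bp was below the 429 bp of the regions described here. Wholly within 50 bp of a summit it was found in 2 of 39 regions (5.13%, interval 0.627% to 17.3%), against 6.35% of all regions. Within 100 bp of a summit it was found in 6 of 39 (15.4%, interval 5.86% to 30.5%), against 14.2% of all regions. The 2 with the motif within 50 bp were the regions at Klf6 23.9 kb upstream and Nr4a1 27.1 kb upstream printed above, and each had a peak in 1 library. None of these 3 shares of the 39 regions could be told from that of all regions within its counting interval. The 2 CRE copies at Ier3 were the only ones in the 39 regions. RefSeq promoter sequences of GRCm38.p6, from 250 bases before to 50 after the start, matched 6 of the 10 genes by symbol (Egr2, Ier3, Ier5, Klf4, Klf6 and Nr4a1). None of the 6 held the AP-1 motif, which was in 5.20% of 32851 promoters. The CArG box of serum response factor, sought on both strands, was found in Egr2 alone of the 6 and in 1.63% of all promoters. The promoters of Egr1, Egr3, Ier2 and Myc were not covered by this search. Among the 39 regions, only that of the second aged Egr1 promoter peak held a CArG box. The core of the CRE, TGACG on either strand, which the full CRE includes, was found in at least 1 listed promoter of Egr2, Klf4 and Nr4a1, 3 of the 6 genes, and in 20.8% of all promoters; Egr2 has several listed starts.

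H3K27ac promoter peaks were found at 7 of the 10 genes (Egr1, Ier2, Ier3, Nr4a1, Klf4, Klf6 and Myc), against 49.8% of protein-coding genes, and were absent at Egr2, Egr3 and Ier5. Distal H3K27ac peaks were most frequent at Nr4a1 and Klf4, with 6 and 5, and none was found at Egr1 and Myc. The folds of the promoter peaks ran from 2.12 upstream of Klf6 to 4.36 at Klf4. Of the 7 genes, 5 also had an aged JunB promoter peak and 1 had a JunB promoter peak in all 4 libraries; among all genes with an H3K27ac promoter peak these shares were 42.4% and 8.15%. Ier2 and Ier3 carried the mark within 3 kb of the TSS without a JunB peak there, and Egr3 had an aged JunB promoter peak without the mark. The Ier2 peak of the mark began 1805 bp upstream of the TSS, with a fold of 2.47 and a percentile of 5.76. Of the 39 JunB regions near the genes, 13 overlapped a peak of the mark (33.3%, interval 19.1% to 50.2%). For the regions near protein-coding genes the share was 48.8%, within that interval. The 2 sets differed in make-up: 9 of the 39 regions lay at promoters, against 5678 of the 13404. The share of the 39 regions was 20.5% when the H3K27ac list was limited to the 50% of its peaks with the highest −log10 p. The share of all regions was not computed at that limit, so 20.5% has no counterpart to the 48.8%. Of the 9 promoter regions, 3 overlapped an H3K27ac peak (33.3%, exact 95% binomial interval 7.49% to 70.1%), namely those at Egr1, Klf4 and Myc, against 65.7% of all JunB promoter regions. Of the 30 distal regions, 10 did (33.3%, interval 17.3% to 52.8%), against 36.4% of all distal JunB regions. These distal classes differ. Of the 30, 9 lay within 3 kb of a TSS of another protein-coding gene, whereas all distal regions of the background lay further from every such TSS. Regions at TSSs of Ado, Bin3 and Atg101 were among the 10 overlaps. The interval of the 9 promoter regions was wide and held the share of all promoter regions. Of the 7 regions in all 4 libraries, 3 overlapped H3K27ac, at Egr2 and at both upstream sites of Ier3 (42.9%, interval 9.90% to 81.6%), against 70.7% of all regions shared by the 4 libraries, a share within that wide interval.

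The aged list was the longest of the JunB lists and held the most peaks near the 10 genes. It had 27 distal peaks against 16, 8 and 8 in Young 1, 2 and 3, on average 10.7 ± 4.62 (SD, n = 3), and the difference of 16.3 peaks was larger than that SD. All 10 genes had a distal aged peak, and 8, 5 and 5 had one in the young libraries. The 10 genes had 1.6, 0.8 and 0.8 distal peaks each on average in Young 1, 2 and 3 and 2.7 in Aged, against 0.547, 0.319, 0.261 and 0.942 over all protein-coding genes. The shares of all these genes with a distal peak were 35.3%, 22.8% and 19.7% for Young 1, 2 and 3 and 50.6% for Aged. As a share of its own list, however, the peaks near the 10 genes were 0.248% in Aged (35 peaks, exact 95% binomial interval 0.173% to 0.344%) and 0.220%, 0.225% and 0.233% in the young libraries (21, 11 and 9 peaks). These 4 shares lay within each other's counting intervals. When each JunB list was limited to its 3863 strongest peaks, the distal difference was 4 peaks. At that length 2 genes had an aged promoter peak and 3, 2 and 1 had one in Young 1, 2 and 3, so the aged count equalled the young mean of 2. The values over all protein-coding genes were not computed at that length.

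**Figure D4:**
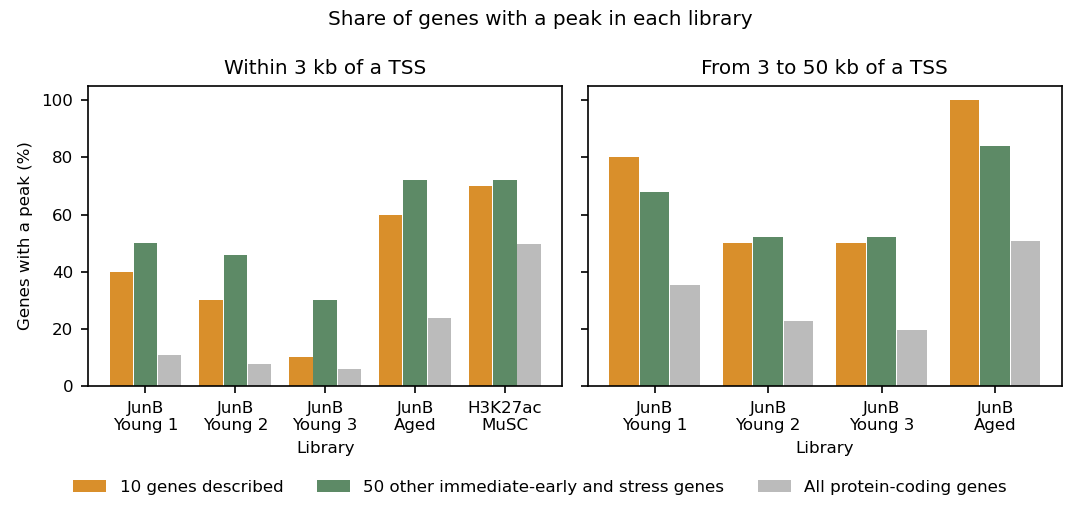
Percent of genes with a peak in each library, for the 10 genes described, 50 other immediate-early and stress genes and all protein-coding genes, within 3 kb of a TSS (left) and from 3 to 50 kb (right, JunB libraries alone). The bars of all genes are the lowest in every library shown, at 23.9% for aged promoters against 6 of the 10 genes.

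Of the 39 regions, 17 had a peak in Aged alone (43.6%), against 46.4% of the regions near protein-coding genes. Those aged peaks ranked low: their median percentile in the aged list was 33.0, with a range of 3.85 to 79.5, and their median fold was 4.42. The 18 aged peaks that overlapped a young peak had a median percentile of 78.5 and a median fold of 5.85. Among all aged peaks the corresponding medians were 41.0 without and 75.7 with a young peak. Of the 35 aged peaks, 6 had the narrowest width found in the list, 245 bp, as did 20.3% of the whole list; they included the promoter peak of Egr3, the upstream one of Nr4a1 and the second one of Egr1. The regions of Egr2, Egr3, Ier3 and Klf6 that all young libraries shared stood at percentiles of 73.5 to 97.6 in the aged list.

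**Figure D5:**
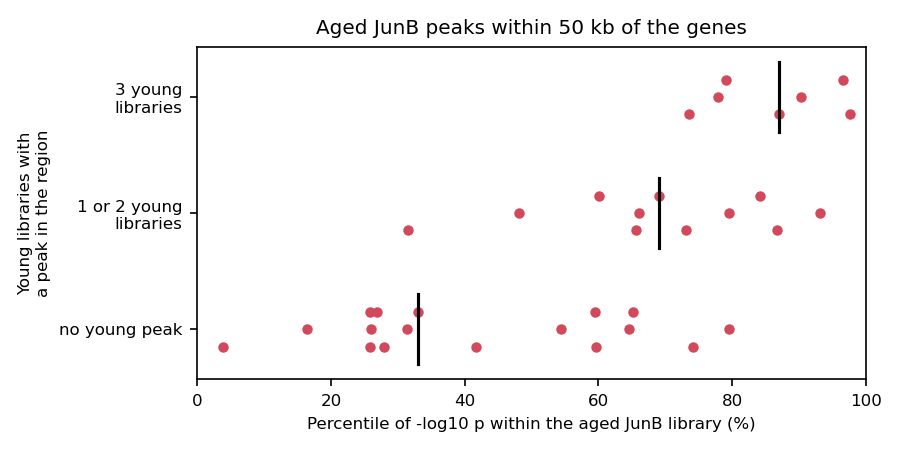
Percentile of −log10 p within the aged JunB list for the 35 aged peaks within 50 kb of the genes (points), by how many young libraries had a peak in the same region, with the median as a black line. The medians were 33.0 with no young peak, 69.0 with 1 or 2 young libraries and 87.1 with 3.

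A wider list of 50 immediate-early and stress genes, which holds no member of the 10, was used to place them. Of these 50 genes, 25, 23 and 15 had a JunB promoter peak in Young 1, 2 and 3 and 36 in Aged. Among the 50, 36 had an H3K27ac promoter peak and 10 had no JunB promoter peak. Over all protein-coding genes the shares were 11.0%, 7.74%, 5.91% and 23.9% for JunB, in the same order, and 49.8% for H3K27ac. A promoter peak in all 4 JunB libraries was found at 13 of the 50, against 1 of the 10 described here and 4.36% of protein-coding genes. Ordered by their mean percentile, the first 10 of the 13 were Zfp36, Trib1, Csrnp1, Dusp1, Hspa1a, Atf3, Junb, Maff, Mcl1 and Hspa8. At Zfp36, an RNA-binding protein that destabilises cytokine transcripts, the folds were 12.3, 10.7 and 10.7 in Young 1 to 3 and 6.14 in Aged. At Dusp1, a phosphatase that switches off MAP kinases, they were 6.29, 15.3 and 14.7 against 9.33, and at Junb itself 9.40, 11.1 and 8.70 against 5.13. Hspa1a has a near-identical neighbour, Hspa1b, and how reads were divided between the copies is uncertain. Distal regions in all 4 libraries occurred at 21 of the 50 genes and at 4 of the 10, against 14.1% of protein-coding genes. No test was made between the lists, whose genes were chosen with earlier results of these data known.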

How the data were processed

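The members and the lists of genes were chosen with earlier results of these data known. Per the study's methods, the authors removed adapters and low-quality sequence, mapped the reads with Bowtie2 against mm10, discarded redundant reads and ran MACS2 with a cutoff on p; a peak list was deposited for each library. Tool versions and a control library are not given in the sources used here, and the methods also tie the H3K27ac data to an epigenome mapping project. The deposited lists give for each peak a fold enrichment (a ratio), a −log10 p and a −log10 q. The lowest −log10 p was 3.01, 5.33 and 5.22 in Young 1, 2 and 3 and 3.01 in Aged, so the lists had not passed one threshold. The peak names in the list of Young 1 carry the tag "gfp", which the labels do not explain. The lists hold no read counts, and the depth of a peak is therefore unknown. Whether the young replicates came from separate mice is not stated beyond their title.

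The work was done in Python 3.11.15 (numpy 2.4.6; scipy 1.17.1, for exact binomial intervals; matplotlib 3.10.9). TSSs were those of all GENCODE M21 transcripts (GRCm38). Distance ran from the nearest base of a peak, overlap needed 1 bp, and JunB peaks that overlapped or touched were merged into regions. AP-1 copies were sought in GRCm38.p6 on both strands. Background shares were taken over protein-coding genes, or regions within 50 kb of one, on chromosomes 1 to 19, X and Y. Every one of the 10 genes was described, with each promoter peak and the distal regions found in at least 3 JunB libraries. Other distal peaks, among them some found in 1 library, were named after their values were seen. The assignment, merging and motif steps were tested on simulated data. No test between ages was made.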

Additional observations from a re-analysis of the deposited data

How the results depend on the processing

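No paired analysis was possible because the aged group holds 1 library and shares no replicate number with the young group by its label. Of 107 values under other settings, 92 stayed within 1.5 times, the young SD or the counting interval, 15 moved further and 0 changed sign. The 92 include values that could not move. The outer window and the merging distance do not enter promoter counts, and the promoter limit does not enter region shares. Leaving out a young library does not enter the aged count. Only the distal difference could change sign, and the counting intervals were wide. The tally is therefore no measure of stability. With the 2000 strongest peaks of each JunB library, 0 of the 10 genes kept a promoter peak in all 4 libraries, 0 had an aged promoter peak and 1 had a young one on average, 2 regions were in all 4 libraries, 0% held an AP-1 motif near a summit, and the distal difference was 2.33 peaks. With lists as long as the shortest, 2 genes had an aged promoter peak, the distal difference was 4 and the motif share 0%. A promoter limit of 1 kb, or protein-coding transcripts alone, left 0 genes with a promoter peak in all 4 libraries. Windows of 20 and 100 kb gave distal differences of 7.33 and 27.7 peaks, and 20 kb a motif share of 0%. Leaving out 1 library at a time gave 1 to 3 genes with a promoter peak in all remaining libraries (3 without Young 3, which lacked those of Egr1 and Klf4), 7 to 10 shared regions, a young mean of 2 to 3.5 genes, a distal difference of 15 to 19 peaks, 33.3% to 40.9% of regions in H3K27ac (the highest without Aged) and a motif share of 2.86% to 5.13%. The H3K27ac share was 20.5% with the strongest 50% of the H3K27ac peaks, 25.6% when the mark had to cover at least 50% of a region and 41.0% within 1000 bp, and the motif share was 15.4% within 100 bp of a summit. Apart from that last motif share, the values over all genes or regions were not computed under the settings of this section. A common floor on −log10 p, leaving out Aged, and counting H3K27ac within 1000 bp were added after the data were seen. With the common floor, at 5.33, 5 genes had an aged promoter peak. The distal difference was then 13.7 peaks, with 24 in Aged against 15, 8 and 8 in Young 1, 2 and 3. Fewer peaks enter under the stricter lists by construction, and the other causes were not tested.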
